A study of Homo sapiens with 24 samples.

Results

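The BCL2 family was examined here as 10 genes taken by symbol from the 4 RNA-Seq tables of a study of KIF20A in triple-negative breast cancer (TNBC). All 10 were listed in each table, among 19283 genes for Hs578T, 18248 for HCC70, 60651 for the guide experiment and 23792 for the overexpression experiment. By their labels the 24 libraries came from 3 established TNBC cell lines in 8 groups of 3 biological replicates, and the markers of the 3 KIF20A OE libraries, given before the results, went against their label. Wild-type Hs578T and HCC70 cells were sorted by FACS into breast cancer stem-like cells (BCSCs, CD24-CD44+ and ALDH+) and non-BCSCs, which lacked both phenotypes. Unsorted cells labelled MDA-MB-231 carried a control sgRNA (sgCtrl) or KIF20A sgRNA #1 (KIF20A sg1, labelled as a knockdown), or an empty vector (EV) or a KIF20A overexpression construct (KIF20A OE). Each of the 4 experiments was counted as its own batch, so in the sorted cells the line and the batch cannot be told apart. The KIF20A-directed groups were labelled as populations of a single cell line with 1 guide or 1 construct, and whether the replicates were separate infections was not stated, so P values measure the spread between these samples.

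Proteins of the BCL2 family decide whether the outer mitochondrial membrane stays closed or lets cytochrome c out to start the caspase cascade. BCL2, BCL2L1 (BCL-XL), BCL2L2 (BCL-W) and MCL1 are anti-apoptotic and bind their pro-apoptotic relatives. BAX and BAK1 are the effectors that form the membrane pore, and the BH3-only proteins BBC3 (PUMA), PMAIP1 (NOXA), BCL2L11 (BIM) and BID either occupy the anti-apoptotic proteins or activate the effectors. Many of these proteins are controlled after translation, and MCL1 is known for its short half-life, so transcript levels are only a part of the balance. In TNBC the anti-apoptotic members are known as candidate drug targets, alongside standard chemotherapy.

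KIF20A, a kinesin motor of cell division, was first read in every library as a check of the labels. In the guide experiment KIF20A was 153, 173 and 156 in sgCtrl and 122, 145 and 91.1 in KIF20A sg1 (reads as scaled by the authors), and the log2 fold change of -0.45 did not pass the test (adjusted P = 0.69). A guide can change the protein without lowering the transcript, so this level does not settle the label. In the overexpression experiment KIF20A was 101, 143 and 124 CPM in EV and 1348, 269 and 896 CPM in KIF20A OE. The KIF20A OE libraries also stood apart from the other MDA-MB-231 libraries in their cell type markers, and whether they are MDA-MB-231 cells was not tested. The marker lists were chosen with earlier results of these data known. Their counts stand beside 69.7% of all genes called by limma at an adjusted P below 0.05, 46.2% higher and 23.4% lower. Of 8 markers of mesenchymal breast cancer lines, 7 fell and SPARC rose (SPARC not by edgeR or DESeq2), and their summed level was 7167 to 7785 CPM in EV and 455 to 912 CPM in KIF20A OE. CD44, a surface marker of the sorted BCSC phenotype, went from 523 to 788 CPM in EV to 0.125 to 1.23 CPM in KIF20A OE. NT5E was at or below 0.428 CPM and AXL at or below 0.811 CPM in the 3 KIF20A OE libraries, against 1191 to 1273 CPM and 811 to 1107 CPM in EV. Of 7 genes of fetal and neural cells, 6 rose, and IRS4, a receptor substrate at 0 reads in the 3 EV libraries, stood at 1219 to 1750 CPM. Their summed level was 72.4 to 80.6 CPM in EV and 1510 to 2029 CPM in KIF20A OE. Of 7 epithelial markers tested, 6 fell and CDH1 rose. Since the loss was shared by all 3 replicates, no result of this comparison could be given without them, and the group is called the libraries labelled KIF20A OE.

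The members lie on separate loci (GRCh38, GENCODE 44). The anti-apoptotic genes are BCL2 at chr18:63123346-63320128, BCL2L1 at chr20:31664452-31723989 and MCL1 at chr1:150560895-150579738, all on the minus strand, and BCL2L2 at chr14:23298790-23311751 on the plus strand. The effectors are BAX at chr19:48954815-48961798 on the plus strand and BAK1 at chr6:33572547-33580293 on the minus strand. The BH3-only genes are BBC3 at chr19:47220822-47232766 and BID at chr22:17734138-17774770 on the minus strand, and PMAIP1 at chr18:59899996-59904305 and BCL2L11 at chr2:111119378-111168444 on the plus strand.

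The upstream sequences of 4 members that moved in the libraries labelled KIF20A OE are given first, the 250 bases before a RefSeq start (GRCh38.p14). They are shown because BCL2L1 fell and BAX, BBC3 and BCL2L11 rose there. Capitals mark 4 short motifs on either strand: the E box CACGTG, the GC box GGGCGG, the CCAAT box CCAAT and the TATA box TATAAA.
BCL2L1, chr20:31723964-31724213, minus strand, the first of 2 listed starts: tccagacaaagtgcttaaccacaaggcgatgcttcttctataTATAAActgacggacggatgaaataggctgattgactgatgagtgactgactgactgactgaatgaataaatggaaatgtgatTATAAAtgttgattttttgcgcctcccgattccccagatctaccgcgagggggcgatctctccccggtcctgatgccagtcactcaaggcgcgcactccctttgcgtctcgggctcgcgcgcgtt
BAX, chr19:48954625-48954874, plus strand: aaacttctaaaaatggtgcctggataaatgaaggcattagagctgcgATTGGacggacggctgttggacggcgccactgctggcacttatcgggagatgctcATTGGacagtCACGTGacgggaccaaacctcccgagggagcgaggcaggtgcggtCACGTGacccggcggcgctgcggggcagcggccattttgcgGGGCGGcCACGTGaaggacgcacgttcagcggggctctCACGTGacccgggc
BBC3, chr19:47232668-47232917, minus strand: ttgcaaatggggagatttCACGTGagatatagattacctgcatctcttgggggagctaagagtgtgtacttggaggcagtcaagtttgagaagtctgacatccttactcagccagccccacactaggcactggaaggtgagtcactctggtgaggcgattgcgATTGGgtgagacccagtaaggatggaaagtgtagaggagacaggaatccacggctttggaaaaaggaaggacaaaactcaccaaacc
BCL2L11, chr2:111120664-111120913, plus strand: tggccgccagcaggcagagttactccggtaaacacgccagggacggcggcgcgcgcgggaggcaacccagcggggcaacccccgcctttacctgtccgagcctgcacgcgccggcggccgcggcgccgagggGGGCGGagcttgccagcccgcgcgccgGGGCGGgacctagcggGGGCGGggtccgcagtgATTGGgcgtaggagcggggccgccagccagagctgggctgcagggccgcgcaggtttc

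The 4 windows differed in these letters. The BAX window held the E box 4 times, and the BBC3 window held it 1 time, while 6.34% of 35116 windows of the same length held it at all. The BCL2L1 window held the TATA box letters 2 times, and 10.7% of all windows held them. The second BCL2L1 start, at chr20:31722869-31723118, had none of the 4 motifs. The BCL2L11 window held the GC box 3 times, a motif found in 42.6% of all windows, and its share of G and C was 76.8%, against a median of 58.0% over all windows. The CCAAT box, in 32.0% of all windows, was found in the BAX, BBC3 and BCL2L11 windows. A match of letters is a description and not a site. Windows were also listed for BCL2, BAK1, PMAIP1 and BID, and not for MCL1 and BCL2L2. Without rescaling, limma called none of BCL2, BAK1, PMAIP1 and BID in the libraries labelled KIF20A OE. The windows of BID starts 2 and 5 held the E box 1 time each. Those of BCL2, BAK1 and PMAIP1 lacked it. The GC box was found 4 times each for PMAIP1 and BID start 1, and not for BCL2. The share of G and C was 72.8% for PMAIP1 and 78.0% for BID start 5. The E box and the GC box were thus not limited to called members.

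The order of the members was read on a scale that allows for transcript length, as TPM in the sorted lines and as CPM per kilobase of annotated exons (GENCODE 44) in the guide and overexpression tables. These scales were set separately in each table, so levels were ordered within a group and not tested across tables. MCL1 was the most abundant member of both sorted lines. It stood at 185 ± 10.7 TPM (SD, n = 3) in Hs578T non-BCSCs and 187 ± 2.07 TPM in BCSCs, and at 488 ± 34.1 and 502 ± 25.6 TPM in the non-BCSCs and BCSCs of HCC70. BCL2L1 came next in Hs578T, at 71.6 ± 3.07 TPM in non-BCSCs, and BAX came next in HCC70, at 79.9 ± 9.79 TPM in non-BCSCs.

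In HCC70 the middle of the order was crowded. BAX and BID overlapped among the non-BCSCs, as did PMAIP1 and BCL2L1, and BID, BCL2L1 and PMAIP1 followed each other with overlapping ranges among the BCSCs, so these neighbours did not differ beyond their spread. BCL2 was at the foot of the order in Hs578T, at 0.104 to 0.141 TPM in non-BCSCs and 0.0802 to 0.108 TPM in BCSCs. These values rest on 7 to 13 reads a library, and BCL2 was below the filter of a mean of 1 there. In HCC70, BCL2 stood at 2.19 ± 0.12 TPM in non-BCSCs and shared the last places with BBC3.

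The BH3-only genes are given for both lines side by side, with no comparison between the tables. BCL2L11, whose protein BIM binds all anti-apoptotic members, was at 1.68 to 1.97 TPM in Hs578T non-BCSCs and at 16.7 to 18.9 TPM in HCC70 non-BCSCs. BID, which caspase-8 cleaves to its active form, was at 23.6 to 24.4 and 59.0 to 71.9 TPM in the same groups. PMAIP1 was at 31.3 to 35.6 and 46.6 to 58.5 TPM, and BBC3 at 0.838 to 1.64 and 2.23 to 3.37 TPM. BAX exceeded BAK1 in each sorted library, by 2.53 to 3.11 times in the 6 Hs578T libraries and by 6.58 to 8.59 times in the 6 HCC70 libraries.

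**Figure D1:**
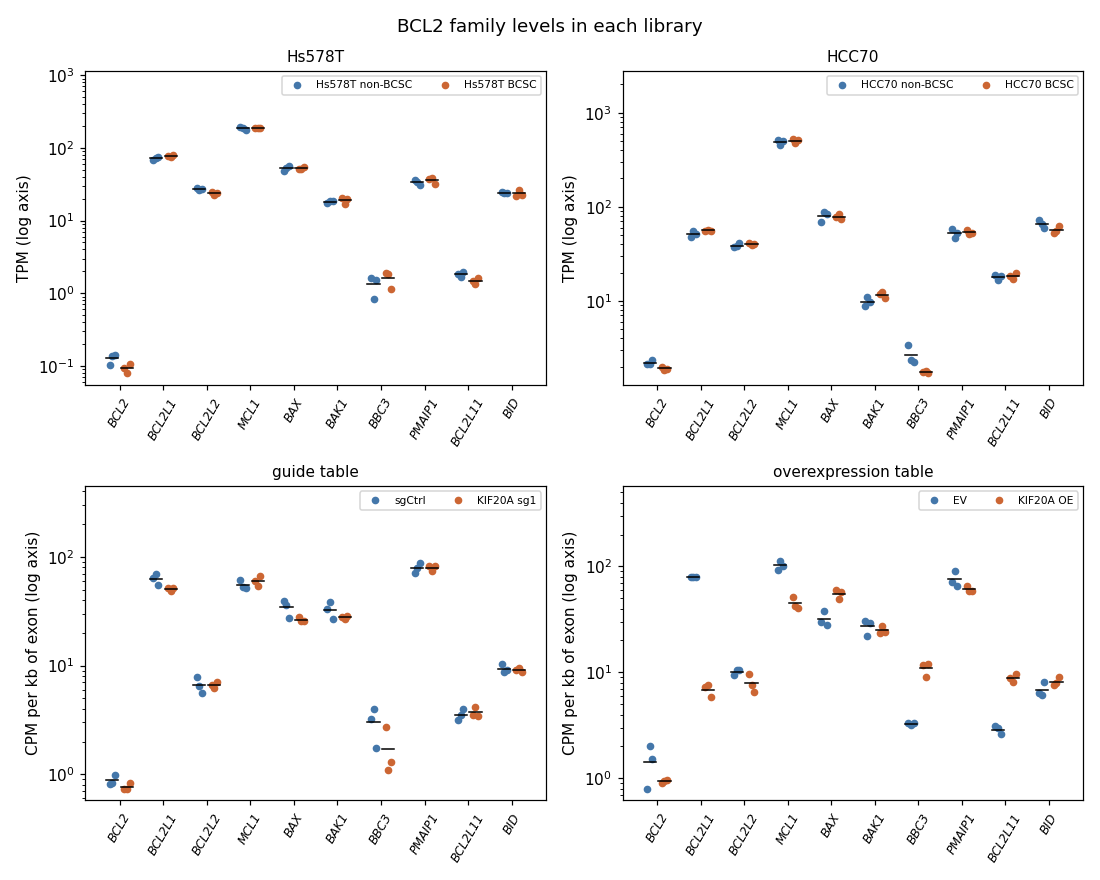
Levels of the 10 members in each of the 24 libraries on log axes, as TPM in Hs578T and HCC70 and as CPM per kilobase of exon in the guide and overexpression tables; points are libraries and lines are means of 3. MCL1 stands on top in both sorted lines, and BCL2L1 drops from 79.6 in EV to 6.88 CPM per kilobase in the libraries labelled KIF20A OE.

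The order began differently in sgCtrl and in EV, the control groups labelled MDA-MB-231. PMAIP1, the NOXA gene whose protein binds chiefly MCL1, led in sgCtrl at 79.5 ± 8.43 CPM per kilobase, followed by BCL2L1 at 63.0 ± 6.91 and MCL1 at 55.2 ± 4.76, and the ranges of the latter pair overlapped. In EV, MCL1 led at 102 ± 9.36 CPM per kilobase, followed by BCL2L1 at 79.6 ± 0.34 and PMAIP1 at 75.3 ± 13.2, whose ranges overlapped. On this scale BAX and BAK1 lay next to each other, with overlapping ranges, in both control groups. Their closeness depended on the length used. By the longest annotated transcript BAX was 65.2 and BAK1 32.7 CPM per kilobase in sgCtrl, and 61.1 and 27.4 in EV. BCL2 was last in sgCtrl, KIF20A sg1 and EV, at 0.768 to 1.44 CPM per kilobase on average, and also in the libraries labelled KIF20A OE, at 0.937. With the length of the longest annotated transcript in place of all exons, BCL2L11 and BBC3 changed places in sgCtrl, BAX and BAK1 did so in KIF20A sg1, and PMAIP1 and BAX as well as BCL2L11 and BID did so in the libraries labelled KIF20A OE.

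In these bulk libraries fewer cells with a transcript and less of it per cell cannot be told apart. The first comparison asked which members differ between BCSCs and non-BCSCs of Hs578T. None of the 9 members tested passed an adjusted P of 0.05 by limma (two-sided, Benjamini-Hochberg over 13324 genes), a test that 7.15% of all genes passed, 2.90% higher and 4.26% lower in BCSCs. Of those genes 40.5% were higher, and 52.0% after scaling by the median of ratios. At an unadjusted P below 0.05 there was 1 member, BCL2L2, beside 22.5% of all genes, and edgeR and DESeq2 on recovered reads also called 0. In 3 of the 9 members the groups did not overlap, against 29.0% of all genes, so this share was near the background.

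Among the anti-apoptotic genes of Hs578T, BCL2L2 was 27.6, 26.2 and 26.9 TPM in non-BCSCs and 24.4, 22.7 and 24.3 TPM in BCSCs. All BCSC libraries lay below the non-BCSC libraries, with a log2 fold change of -0.17 (95% interval -0.29 to -0.06), and the adjusted P was 0.0801, ranging from 0.0517 to 0.198 over the settings tried. BCL2L2 shares 815 of its 4840 exon bases with the readthrough gene BCL2L2-PABPN1 on the same strand, which was listed at 85.4 to 91.4 TPM in Hs578T, so its reads are uncertain. BCL2L1 was 68.1, 72.8 and 73.8 TPM in non-BCSCs and 76.3, 75.3 and 78.9 TPM in BCSCs. The BCSC libraries were the higher ones, by 0.10 on the log2 scale (interval -0.01 to 0.21, adjusted P = 0.261). MCL1 differed by 0.01, with an interval of -0.10 to 0.13.

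The effectors of Hs578T were close to equal in both fractions, with log2 fold changes of 0.01 for BAX (-0.13 to 0.14) and 0.06 for BAK1 (-0.12 to 0.24). Of the BH3-only genes, BCL2L11 was 1.85, 1.68 and 1.97 TPM in non-BCSCs and 1.45, 1.36 and 1.64 TPM in BCSCs. These groups did not overlap, and the log2 fold change of -0.19 had an adjusted P of 0.301. Fold changes are on log2(TPM + 1), which makes those of genes at a few TPM smaller. The settings tried gave -0.29 to -0.12 for BCL2L11. BBC3 gave 0.18 with a wide interval of -0.23 to 0.60, on 23 to 51 reads a library. PMAIP1 gave 0.08 (-0.11 to 0.27) and BID -0.01 (-0.18 to 0.15).

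The same question in HCC70 gave 0 of 10 members called by limma, against 2.83% of 13218 genes (2.28% higher and 0.552% lower in BCSCs), and edgeR and DESeq2 also called 0. Of all genes called 80.5% were higher by limma, 61.7% by edgeR and 54.5% by DESeq2. At an unadjusted P below 0.05 there were 3 members, BBC3, BAK1 and BID, and 23.7% of all genes passed that mark. Groups did not overlap for 3 of 10 members, against 30.9% of all genes. BBC3, whose protein PUMA is a known product of p53 activation, was 3.37, 2.34 and 2.23 TPM in non-BCSCs and 1.77, 1.80 and 1.69 TPM in BCSCs. All BCSC libraries were the lower ones, and the log2 fold change was -0.39 (interval -0.70 to -0.08, adjusted P = 0.139). The 1 added to TPM makes this change smaller at so low a level, and the settings tried gave -0.61 to -0.25. BAK1 was 8.88, 10.9 and 9.76 TPM in non-BCSCs and 11.8, 12.3 and 10.8 TPM in BCSCs. Its groups overlapped by a narrow margin, with a log2 fold change of 0.22 (interval 0.02 to 0.43, adjusted P = 0.184).

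BID in HCC70 was 71.9, 66.0 and 59.0 TPM in non-BCSCs and 53.2, 55.8 and 61.8 TPM in BCSCs. The highest BCSC library exceeded the lowest non-BCSC library, and the log2 fold change was -0.20 (adjusted P = 0.21). BCL2L1 was 47.9, 55.7 and 50.9 TPM in non-BCSCs and 55.8, 57.1 and 55.8 TPM in BCSCs. As in Hs578T its groups did not overlap, with the BCSCs higher, and here too it was not called (log2 fold change 0.13, interval -0.02 to 0.28, adjusted P = 0.273). BCL2 was 2.12, 2.13 and 2.33 TPM in non-BCSCs and 1.99, 1.84 and 1.91 TPM in BCSCs, a log2 fold change of -0.13 (adjusted P = 0.452). The other 5 members gave log2 fold changes of -0.01 for BAX, 0.03 for PMAIP1, 0.03 for BCL2L11, 0.04 for MCL1 and 0.05 for BCL2L2.

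Whether the fraction difference was unlike between the lines was tested as an interaction over the 12 sorted libraries. Of 9 members tested 0 were called, against 7.11% of 11668 genes, 5.62% with a higher and 1.49% with a lower log2 fold change in HCC70. The higher share of these calls was 79.0%, and 54.8% after the median of ratios. At an unadjusted P below 0.05 there were 2, and 26.8% of all genes passed that mark. BCL2L2 had the lowest P, with a difference of 0.22 between the log2 fold changes of HCC70 and Hs578T (interval 0.07 to 0.38, adjusted P = 0.0745). Without HCC70 non-BCSC replicate 3 it was called, at 0.26 with an adjusted P of 0.0459. The other omissions gave no call, and the range over all of them was 0.19 to 0.26. BBC3 differed by -0.57 (interval -1.10 to -0.05, adjusted P = 0.151), and by -0.84 to -0.41 over the settings tried.

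The other apoptosis genes of the sorted cells were counted from fixed lists. The counts here and in the next paragraph stand beside 7.15% of all genes called in Hs578T (2.90% higher, 4.26% lower). In HCC70 they stand beside 2.83% (2.28% higher, 0.552% lower). None of the 5 other BCL2 family genes tested in Hs578T and none of the 10 tested in HCC70 passed, the lowest adjusted P being 0.583 for BCL2L13 in Hs578T and 0.2 for BIK in HCC70. Of 13 genes of the apoptosome, the caspases and the proteins that mitochondria release, 2 fell in Hs578T BCSCs and 0 were called in HCC70. These were CASP10, an initiator caspase of death receptors, at 4.05 ± 0.375 and 2.85 ± 0.29 TPM (log2 fold change -0.39, adjusted P = 0.0466), and DIABLO, a mitochondrial antagonist of inhibitor of apoptosis proteins, at 39.7 ± 1.69 and 33.6 ± 0.795 TPM (-0.23, adjusted P = 0.028). Both differed between the lines by the interaction test, with values of 0.58 for CASP10 (adjusted P = 0.0137) and 0.33 for DIABLO (adjusted P = 0.0254).

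Of 5 inhibitor of apoptosis genes tested in each line, only BIRC5 (survivin) passed by limma, and it rose in both. BIRC5 went from 158 ± 5.28 to 185 ± 3.34 TPM in Hs578T BCSCs and from 65.2 ± 2.33 to 87.9 ± 0.688 TPM in HCC70 BCSCs. BIRC5 is also a gene of mitosis, and of 12 G2/M phase genes 11 rose in Hs578T BCSCs (median log2 fold change 0.37) and 10 rose in HCC70 BCSCs (median 0.61), the part of which in the BIRC5 difference was not tested. Of 14 p53 targets outside the family, CDKN1A and TNFRSF10B rose and ZMAT3 and TP53I3 fell in Hs578T BCSCs, and SESN2 rose in HCC70 BCSCs. Among 7 tested transcription factors known to act on BH3-only genes, MYC rose in Hs578T (log2 fold change 0.23) and DDIT3 in HCC70 (0.47). Of 7 genes of MCL1 protein turnover, HUWE1, a ubiquitin ligase of MCL1, rose in HCC70 by 0.26 (adjusted P = 0.0495), and 0 were called in Hs578T. None of the 6 outer membrane partners of BAX and BAK1 was called in either line.

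KIF20A was higher in the BCSCs of both lines, with log2 fold changes of 0.45 in Hs578T (adjusted P = 0.00718) and 0.80 in HCC70 (adjusted P = 0.00157). Of the sorting markers, CD44 gave log2 fold changes of 0.05 in Hs578T and 0.04 in HCC70, and CD24 was 857 ± 47.7 TPM in HCC70 non-BCSCs and 692 ± 30.0 TPM in BCSCs (log2 fold change -0.31, adjusted P = 0.0543). For CD24 the Hs578T fractions overlapped, with BCSC libraries at 78.5 to 87.0 TPM and non-BCSC libraries at 78.4 to 92.4 TPM. Transcripts of the ALDH family were not analysed here.

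The guide experiment asked what KIF20A sg1 changes in MDA-MB-231 cells. By limma 0 of 12852 genes were called (0%), and 0 of the 10 members. At an unadjusted P below 0.05 there were 899 genes, or 7.00%, and 3 members, and edgeR called 0 genes and DESeq2 16, with 0 members in either. Groups did not overlap for 1 of 10 members, against 13.0% of all genes.

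The 3 members were BCL2L1, BAX and BBC3, each with lower means in KIF20A sg1. BCL2L1 was 269, 291 and 233 in sgCtrl and 218, 206 and 217 in KIF20A sg1 (reads as scaled by the authors). All KIF20A sg1 libraries lay below the control libraries, with a log2 fold change of -0.30 (interval -0.57 to -0.03, adjusted P = 0.69). BAX was 102, 93.3 and 71.0 in sgCtrl and 71.9, 67.1 and 66.2 in KIF20A sg1, a log2 fold change of -0.35 (interval -0.67 to -0.04, adjusted P = 0.69). BBC3 was 10.3, 12.8 and 5.60 in sgCtrl and 8.69, 3.49 and 4.17 in KIF20A sg1, a log2 fold change of -0.73 (interval -1.43 to -0.03, adjusted P = 0.694). For BAX and BBC3 the groups overlapped through sgCtrl replicate 3, which had the lowest control value of each.

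Without sgCtrl replicate 3, 144 genes were called in place of 0, and still 0 members. The values then were -0.39 for BCL2L1 (adjusted P = 0.0785), -0.50 for BAX (adjusted P = 0.053) and -1.04 for BBC3 (adjusted P = 0.105). With each library left out in turn they ranged from -0.39 to -0.23 for BCL2L1 and from -0.50 to -0.25 for BAX. For BBC3 the range was -1.07 to -0.50. The remaining 7 members gave log2 fold changes from -0.22 for BAK1 (interval -0.54 to 0.10) to 0.12 for MCL1 (-0.16 to 0.41). In the lists of other apoptosis genes 0 of any list were called. The lowest adjusted P among the other BCL2 family genes was 0.69, shared by the BH3-only genes BAD and BMF, whose log2 fold changes were -0.64 and -0.82.

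**Figure D2:**
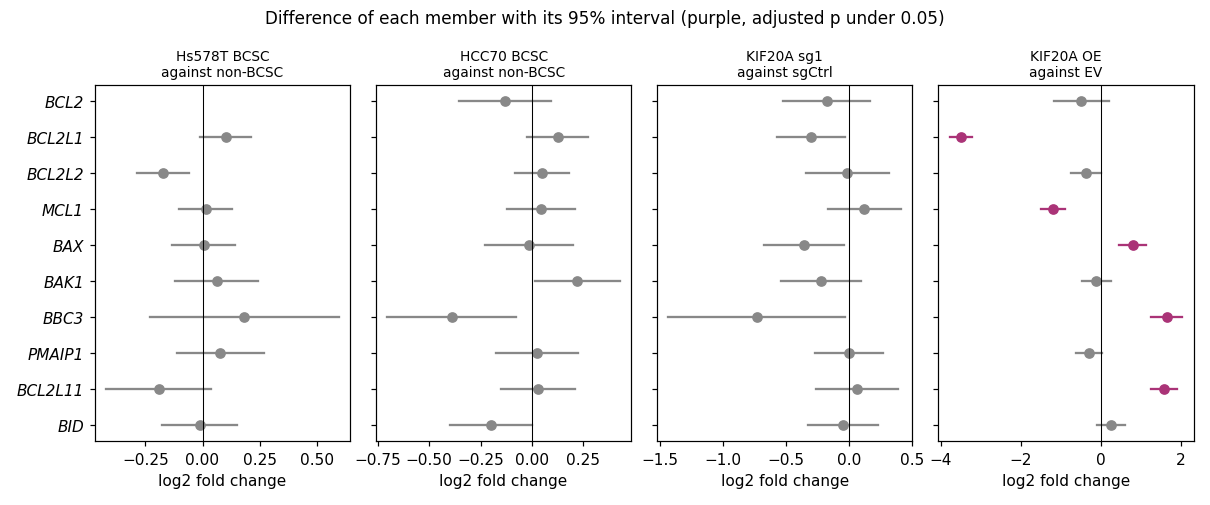
Log2 fold change of each member with its 95% interval from limma in the 4 comparisons, each panel on its own axis; purple marks an adjusted P below 0.05. The 9 or 10 members tested in the first 3 panels stay grey, and 5 of 10 are called in the last panel, from -3.50 for BCL2L1 to 1.64 for BBC3.

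The overexpression experiment compared the libraries labelled KIF20A OE with EV. Of the 10 members 5 were called by limma on log2(CPM + 1), and 3 of them rose and 2 fell. This share was below the 69.7% of 15265 genes that were called, of which 46.2% of the genes tested rose and 23.4% fell. At an unadjusted P below 0.05 there were again 5 members, beside 72.2% of all genes. A called log2 fold change of at least 1 in either direction was seen for 4 members, beside 42.9% of all genes. Groups did not overlap for 6 of 10 members, against 74.1% of all genes. The log2 fold change of the median gene was 0.37, so changes are also given relative to it. After scaling by the median of ratios, higher genes made up 51.2% of all calls instead of 66.3%, and 9 of 10 members were called, 3 higher and 6 lower. All genes were then called at 66.7%, 34.2% higher and 32.5% lower, so the members' share lay above that of all genes under this scaling and below it without.

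BCL2L1 had the largest change among the 10 members. It was 333, 336 and 334 CPM in EV and 30.3, 31.6 and 24.6 CPM in those labelled KIF20A OE. The groups lay far apart and the mean was 11.6-fold lower, a log2 fold change of -3.50 (SE 0.12, adjusted P = 1.8e-07), or -3.87 relative to the median gene. A fall called at a log2 fold change of -3 or below was seen for 4.07% of all genes. An antisense gene, ABALON, overlaps 1735 of the 4197 exon bases of BCL2L1 and was listed at 0.857 CPM or less in this table, and whether strand was used in counting was not given in the sources used here.

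MCL1 was 581, 698 and 634 CPM in EV and 318, 262 and 254 CPM in those labelled KIF20A OE. All 3 lay below EV, with a log2 fold change of -1.20 (SE 0.13, adjusted P = 7.33e-05), or -1.57 relative to the median gene. BCL2 was 10.0, 25.3 and 19.1 CPM in EV and 11.4, 11.9 and 12.1 CPM in those labelled KIF20A OE. EV replicate 1 lay below all of the latter, and BCL2 was not called (log2 fold change -0.49, adjusted P = 0.177). Without EV replicate 1 it was called, at -0.84 (adjusted P = 0.00691). Leaving out each library in turn gave -0.84 to -0.22, and only this omission led to a call. BCL2L2 was 45.8, 51.2 and 50.6 CPM in EV and 47.0, 36.6 and 31.9 CPM in those labelled KIF20A OE, with a log2 fold change of -0.36 (adjusted P = 0.0774). Without KIF20A OE replicate 1 it was called, at -0.51 (adjusted P = 0.0209). The other omissions gave no call, and the range over all of them was -0.51 to -0.24. The readthrough gene BCL2L2-PABPN1 was listed at 0.0476 to 0.353 CPM in EV and at 0.161 to 0.451 CPM in those labelled KIF20A OE.

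**Figure D3:**
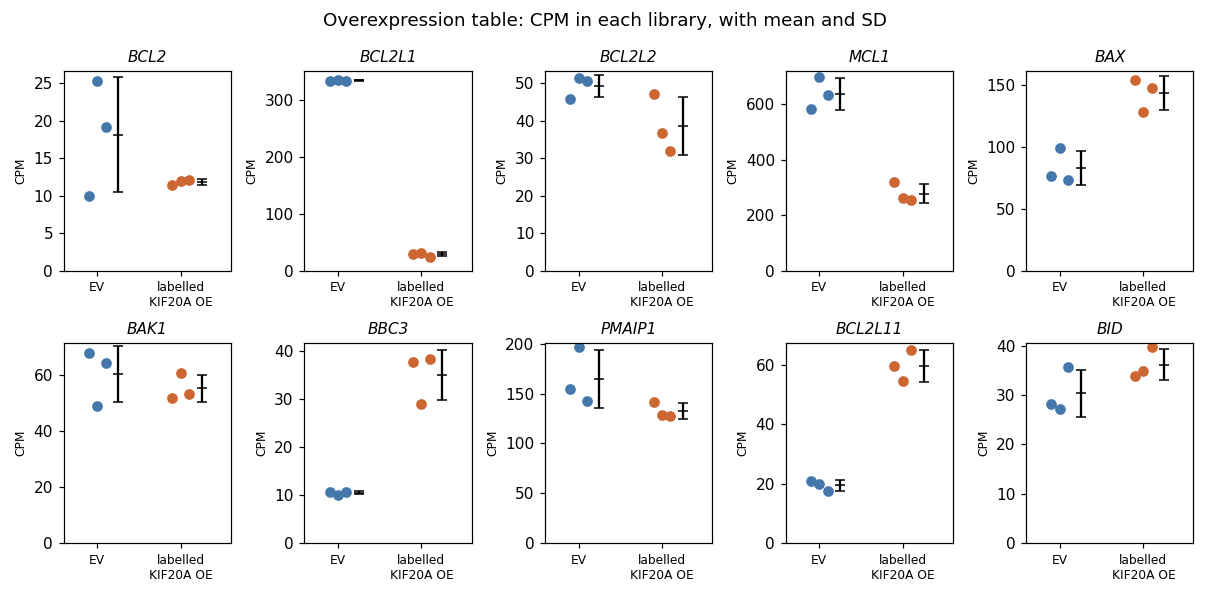
CPM of each member in the 3 EV libraries and the 3 libraries labelled KIF20A OE, with mean and SD beside the points and axes from 0. BCL2L1 sits at 333 to 336 CPM in EV and at 24.6 to 31.6 CPM in the other group, while BBC3 and BCL2L11 sit higher in the latter with no overlap.

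Of the effectors, BAX rose and BAK1 was not called. BAX was 76.7, 98.9 and 73.1 CPM in EV and 154, 128 and 148 CPM in those labelled KIF20A OE. The groups did not overlap, with a log2 fold change of 0.79 (SE 0.15, adjusted P = 0.00153), or 0.42 relative to the median gene. BAK1 was 67.9, 49.2 and 64.4 CPM in EV and 52.0, 60.9 and 53.3 CPM in the other group, with a log2 fold change of -0.11 (interval -0.47 to 0.24).

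Of the BH3-only genes, BBC3 and BCL2L11 rose. BBC3 was 10.6, 10.1 and 10.6 CPM in EV and 37.6, 28.9 and 38.2 CPM in those labelled KIF20A OE, 3.35-fold higher on average. The log2 fold change was 1.64 (SE 0.17, adjusted P = 4.85e-05), or 1.27 relative to the median gene. BCL2L11 was 20.9, 19.9 and 17.5 CPM in EV and 59.7, 54.5 and 65.1 CPM in the other group, 3.08-fold higher on average. Its log2 fold change was 1.57 (SE 0.14, adjusted P = 2.33e-05), or 1.20 relative to the median gene. MIR4435-2HG, a noncoding gene on the opposite strand that overlaps 727 of the 6742 exon bases of BCL2L11, moved the other way, at 22.2 to 28.4 CPM in EV and 4.10 to 11.0 CPM in those labelled KIF20A OE.

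PMAIP1 and BID were not called. PMAIP1 was 155, 197 and 142 CPM in EV and 142, 128 and 128 CPM in those labelled KIF20A OE. The groups did not overlap, by a margin of under 1 CPM, and the log2 fold change was -0.30 (adjusted P = 0.0912). Without EV replicate 3 it was called, at -0.40 (adjusted P = 0.0417). The other omissions gave no call, and the range over all of them was -0.40 to -0.16. BID was 28.1, 27.2 and 35.7 CPM in EV and 33.8, 34.8 and 39.8 CPM in the other group, a log2 fold change of 0.25 (adjusted P = 0.175) that turned to -0.10 after scaling by the median of ratios.

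Scaling decided how many of the members were called. With the median of ratios, edgeR and DESeq2, which called 66.7%, 65.1% and 66.7% of all genes, 9 members were called, and the 4 added to the 5 above were BCL2, BCL2L2, PMAIP1 and BAK1, all lower. Their log2 fold changes after the median of ratios were -0.83, -0.72, -0.66 and -0.48. Quantile normalization called 7 members, beside 66.9% of all genes. BCL2L1, MCL1, BBC3, BCL2L11 and BAX were called in the same direction in all 15 settings tried, and their log2 fold changes ranged from -3.89 to -3.39 for BCL2L1, from -1.56 to -1.03 for MCL1, from 1.29 to 1.77 for BBC3, from 1.22 to 1.64 for BCL2L11 and from 0.42 to 0.92 for BAX.

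**Figure D4:**
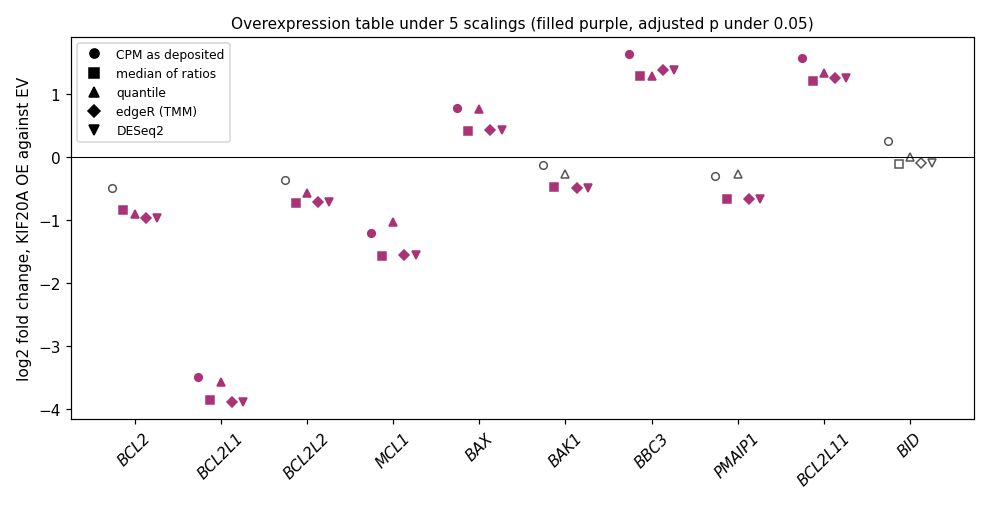
Log2 fold change of each member between the libraries labelled KIF20A OE and EV under 5 scalings, marked by shape; filled purple marks an adjusted P below 0.05 and open grey marks the rest. BCL2L1, MCL1, BAX, BBC3 and BCL2L11 are filled under each scaling, and BID crosses 0.

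The members were also summed by role on the per-length scale, as a description with no test. In the libraries labelled KIF20A OE the anti-apoptotic sum was 54.3 to 69.0 CPM per kilobase, against 183 to 205 in EV. The effector sum was 76.9 to 83.1, against 57.4 to 60.5, and the BH3-only sum was 83.8 to 93.1, against 79.1 to 102. The ratio of effector to anti-apoptotic transcripts was therefore 1.204 to 1.495 in these libraries and 0.295 to 0.33 in EV. The share of BCL2L1 in the anti-apoptotic sum was 10.5% to 13.0%, against 39.1% to 43.3% in EV, and that of MCL1 was 72.4% to 75.3%, against 51.1% to 54.8%.

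In the sorted lines the same ratios overlapped between fractions. The effector to anti-apoptotic ratio was 0.225 to 0.269 in Hs578T non-BCSCs and 0.242 to 0.256 in BCSCs, and 0.129 to 0.18 and 0.142 to 0.168 in HCC70. The BAX to BAK1 ratio of HCC70 did not overlap, at 7.74 to 8.59 in non-BCSCs and 6.58 to 6.96 in BCSCs. In the guide experiment the ratio of BCL2L1 to MCL1 was 1.06 to 1.31 in sgCtrl and 0.772 to 0.903 in KIF20A sg1, without overlap, while the effector to anti-apoptotic ratio was 0.473 to 0.576 and 0.426 to 0.478 and overlapped. The ratios were not tested.

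**Figure D5:**
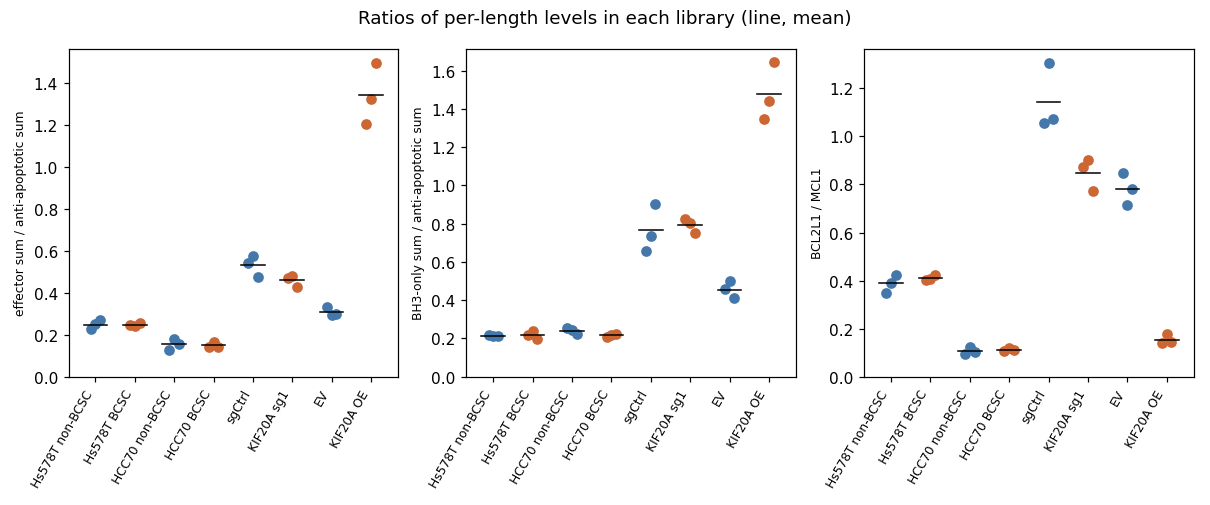
Ratios of per-length levels in each library, from 0, for the 8 groups in the order of the 4 tables; points are libraries and lines are means of 3. The ratio of effector to anti-apoptotic transcripts is 1.204 to 1.495 in the libraries labelled KIF20A OE and 0.295 to 0.33 in EV. Ratios are read within a table, since the scales and lengths differ between tables.

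Around the family, other apoptosis genes also differed between the libraries labelled KIF20A OE and EV. The list counts that follow stand beside 69.7% of all genes called (46.2% higher), or 66.7% (34.2% higher) after the median of ratios. Of 7 other BCL2 family genes tested, 3 rose and 2 fell, or 2 and 3 after the median of ratios. HRK, a BH3-only gene, was at 2, 0 and 0 reads in EV and 9.89, 11.3 and 15.3 CPM in those labelled KIF20A OE. BOK, a relative of BAX and BAK1, was 63.1, 57.8 and 56.5 CPM in EV and 4, 0 and 12 reads in the other group, a log2 fold change of -5.56. BCL2L13 rose from 37.8 ± 8.41 to 86.5 ± 2.92 CPM. BCL2A1, an anti-apoptotic gene, was at 0 reads in the 3 libraries labelled KIF20A OE and at 0.428, 0.967 and 8.11 CPM in EV, so that EV replicate 3 set most of its mean (adjusted P = 0.0457).

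Of 12 apoptosome, caspase and mitochondrial release genes tested, 5 rose and 0 fell, and after the median of ratios 4 rose and 4 fell, so the direction of this list depended on the scaling. CASP2 (log2 fold change 1.56), AIFM1 (1.52) and ENDOG (1.44) rose under both. Of 5 inhibitor of apoptosis genes 2 rose and 2 fell, or 1 and 3 after the median of ratios, where BIRC6 was called lower. BIRC3 (cIAP2) went from 50.5 ± 12.8 to 0.539 ± 0.345 CPM and BIRC2 (cIAP1) from 188 ± 40.2 to 60.4 ± 1.16 CPM, while BIRC5 rose from 130 ± 38.0 to 318 ± 40.4 CPM and XIAP from 99.8 ± 23.7 to 163 ± 29.7 CPM. XIAP was not called after the median of ratios.

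Of 6 outer membrane partners of BAX and BAK1, 4 rose, or 3 with 1 lower after the median of ratios. TOMM22, the import receptor, went from 45.7 ± 5.07 to 158 ± 25.6 CPM, TOMM20 from 248 ± 19.8 to 807 ± 24.4 CPM, VDAC3 from 86.5 ± 14.2 to 164 ± 17.8 CPM and VDAC2, a known partner of BAK1, from 216 ± 13.4 to 303 ± 5.30 CPM, VDAC2 not after the median of ratios. Of 7 genes of MCL1 protein turnover 4 rose, or 3 after the median of ratios. USP9X, the deubiquitinase that stabilises MCL1, rose by 1.44 on the log2 scale, and FBXW7 (0.83), HUWE1 (0.75) and BTRC (0.52), which take part in its ubiquitination, rose as well, BTRC not after the median of ratios.

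Of 9 transcription factors known to act on BH3-only genes, 6 rose and 0 fell, or 4 and 0 after the median of ratios, and the share called was below that of all genes under both. FOXO1 rose by 1.69, TP73 by 1.62, ATF4 by 1.38 and E2F1 by 0.86 on the log2 scale. Of 14 p53 targets outside the family 9 rose and 1 fell, or 7 and 1 after the median of ratios, a share called near that of all genes in the first case and below it in the second. The largest changes of the called genes were those of SESN1 (2.77), AEN (2.70), SESN2 (2.51) and TIGAR (2.30). The median log2 fold change of this list was 1.38, beside 0.37 for all genes. Of 12 G2/M phase genes 5 rose and 0 fell, or 2 and 1 after the median of ratios, and KIF20A itself, which the construct carries, is among the risers of both counts. All of these differences accompanied the marker changes of the libraries labelled KIF20A OE given at the start, and the part of the latter in the former was not tested.

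The genes most like BCL2L1 and BBC3 over the 24 libraries were found after scaling log2 values to mean 0 and SD 1 within each table. Among 9891 genes tested in all 4 tables, WNT5B (r = 0.927), EPHB2 (r = 0.912) and PLCB3 (r = 0.91) were most like BCL2L1, and NUBP2 (r = 0.882), SELENOH (r = 0.869) and MZT2B (r = 0.868) were most like BBC3. These correlations describe libraries that share tables and groups. After the scaling each table carried equal weight, whatever the size of its group difference.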

How the data were processed

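Poly-A RNA of 24 libraries was sequenced on stranded TruSeq libraries. The submitters' processing notes name HISAT2 2.0.5, featureCounts 1.5.0-p3 and GRCh38, and the annotation and the strand setting are not given in the sources used here. The authors deposited TPM for Hs578T and HCC70 and CPM for the overexpression experiment. The deposited guide table, named CPM by the authors, holds a signal of reads over 1 factor per library with column sums of 977394 to 1028621, and it was used as given. No sample column was left unused.

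Members, lists and tests were chosen with earlier results of these data known. Genes with a mean of at least 1 were tested on log2(value + 1), fold changes being on that scale, with limma 3.58.1 (trend, R 4.3.3), each comparison alone, and an interaction over the 12 sorted libraries. Whole reads were recovered from value steps within a tolerance of 0.1 in the guide and overexpression tables and from ratios within a gene in the TPM tables, where 97.9% of the genes of simulated Hs578T data came out exact. Recovered totals per library spanned 28189500 to 33715701 (Hs578T), 24681218 to 33559417 (HCC70), 41424338 to 51018667 (guides) and 15971297 to 22182293 (overexpression). edgeR 4.0.16 and DESeq2 1.42.0 were run on these reads as alternatives, besides a pseudocount of 0.1, no filter, a mean of at least 5, median of ratios, quantile normalization, a replicate block and leaving out each library. Exact permutation of 3 against 3 cannot go below P = 0.1. All members are named; from each list, up to 4 called genes with the largest change are named, or else the gene with the lowest adjusted P, and 1 gene so chosen is not reported here. GENCODE 44 gave exon lengths, overlaps and positions, and RefSeq gave promoter windows. Symbols were updated through RefSeq synonyms. Python 3.11.15, numpy 2.4.6, pandas 2.3.3 and matplotlib 3.10.9 were used.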

Additional observations from a re-analysis of the deposited data

How the results depend on the processing

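The number of members called stayed at 0 in Hs578T, HCC70 and the guide experiment under each of 14 alternatives. In the overexpression experiment it was 5, and 9 under the median of ratios, edgeR and DESeq2, 7 under quantile normalization, and 5 to 6 when a library was left out. BID turned to -0.10 under the median of ratios and to -0.092 under edgeR and DESeq2. For the interaction it was 0 to 1 when a library was left out. Of all genes, 10634 were called in the overexpression experiment and 9576 to 10364 with a library left out. Calls over all genes moved by more than 1.5 times in the other comparisons. They were 953 in Hs578T, 1646 by edgeR and 343 to 865 with a library left out. They were 374 in HCC70, 178 without a filter, 232 under the median of ratios, 235 under quantile normalization, 715 by edgeR, 1178 by DESeq2, 128 with the replicate block and 32 to 270 with a library left out. For KIF20A sg1 they were 0, 16 by DESeq2 and 0 to 144 with a library left out, and for the interaction 830, 302 with the replicate block and 291 to 1225 with a library left out. With the longest transcript in place of all exons, the mean per-length level moved by at least its SD for 8 members in EV. It did so for 9 members in each of sgCtrl, KIF20A sg1 and the libraries labelled KIF20A OE.

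No comparison had all same-number correlations of replicates above 0.1, which cannot exclude a pairing, and the replicate block changed no member's call. In the guide experiment replicates 1, 2 and 3 of sgCtrl correlated most with replicates 3, 1 and 2 of KIF20A sg1 (r = 0.262, 0.276 and 0.254). The same-number values there were -0.045, -0.11 and -0.16, and whether these libraries were handled in pairs was not tested. Uncalled members turned their direction in a few settings. Under quantile normalization BAX was -0.0033 in Hs578T, MCL1 -0.0052 and PMAIP1 -0.013 in HCC70, and BCL2L2 0.014 and PMAIP1 -0.0082 with KIF20A sg1. BID in Hs578T was 0.013 under the median of ratios, 0.013 by edgeR and 0.012 by DESeq2, and PMAIP1 in HCC70 was -0.0015 under the median of ratios and -0.0048 by DESeq2. For the interaction under the median of ratios BCL2L1 was -0.029 and MCL1 -0.025. With a library left out, the ranges that crossed 0 were -0.032 to 0.051 for MCL1, -0.052 to 0.049 for BAX and -0.092 to 0.039 for BID in Hs578T. In HCC70 they were -0.015 to 0.084 for MCL1, -0.12 to 0.051 for BAX, -0.056 to 0.10 for PMAIP1 and -0.024 to 0.081 for BCL2L11. With KIF20A sg1 they were -0.13 to 0.11 for BCL2L2, -0.074 to 0.078 for PMAIP1, -0.021 to 0.15 for BCL2L11 and -0.092 to 0.024 for BID. For the interaction they were -0.024 to 0.082 for BCL2L1, -0.028 to 0.075 for MCL1, -0.12 to 0.045 for BAX and -0.14 to 0.026 for PMAIP1. The causes were not tested.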
